A study of Mus musculus with 12 samples.

Results

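The constitutive proteasome genes were followed as 41 of the 15138 mouse genes that had at least 30 reads summed over 12 libraries of sorted CD4+ T cells. They are the protein-coding genes whose symbol is Psma, Psmb, Psmc, Psmd, Psme, Psmf or Psmg plus a number, and the 5 interferon-inducible ones (Psmb8, Psmb9, Psmb10, Psme1 and Psme2) were set apart. Of 48 such symbols in the annotation, Psma8 (27 reads) and Psmb11 (0 reads) were under the read minimum, and all 41 members passed it. By role, 7 encode the alpha ring of the core particle, 7 its beta ring, 9 the base, 8 the lid, 7 assembly chaperones and 3 activators or the inhibitor of the core.

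The proteasome is the protease that degrades proteins tagged with ubiquitin. Its barrel-shaped core is built of outer alpha rings, which gate the entrance, and inner beta rings, which hold the proteolytic sites. Its regulatory particle consists of a base with an ATPase ring that unfolds substrates and a lid that removes the ubiquitin chain. Activated T cells grow and turn over much protein, and in cells exposed to interferon some of the beta subunits are replaced by inducible ones to form the immunoproteasome.

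All mice were Tg4 Nr4a3-Tocky Il10-GFP animals, which carry a transgenic T cell receptor for a myelin basic protein (MBP) peptide, a Timer reporter driven by Nr4a3 and a GFP reporter of Il10. Ages and sexes were not given per mouse. Each mouse received 4 mg/kg of [4Y]-MBP peptide under the skin, an antibody into the peritoneum 24 h later, and 0.4 mg/kg of the peptide 30 min after the antibody. Splenic CD4+ cells positive for both Timer Blue and Timer Red (responder cells) were sorted 12 h after that. The 4 groups of 3 mice received an isotype pool of rat IgG1 and rat IgG2a, anti-PD-L1 (MIH5), anti-Lag3 (C9B7W), or both antibodies at a 1:1 ratio (combined blockade, CB). The dose is given as 0.5 mg of antibody, and it is not stated whether CB held this in all or of each antibody, so CB and the single antibodies may differ in the amount of each. Per the study's methods the spleens were sorted 4 at a time, with CD4 stained in another colour for each treatment, so the stain and the treatment cannot be told apart. The labels do not say which mice shared a sort. All groups therefore share the transgenes, the peptide and the selection for a reporter that the T cell receptor switches on, so that cells without recent signalling were not measured.

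Reads counted on genes were between 16449370 and 22151025 per mouse, and the members held 8127 (Psmd10) to 137484 (Psma7) of them each over the 12 mice, with at least 409 reads in any mouse. A single gene outside the members took between 14.3% (isotype mouse 1) and 21.9% (CB mouse 1) of the reads on genes, and its part in the levels was not tested. Levels are given as CPM, which are counts scaled to the TMM-adjusted size of each library. The libraries read the 3′ end of messages, so CPM were not divided by length and are compared between mice and not between genes. The 7 markers of CD4+ T cells, reporter gene Nr4a3 included, were detected in every group, while the summed level was at most 25.5 CPM for 6 B cell markers, 17.0 CPM for 6 myeloid, 4.70 CPM for 3 NK cell and 3.31 CPM for 3 platelet markers in any mouse. The 2 CD8 markers summed to between 40.9 and 45.3 CPM with isotype and to between 25.0 and 33.2 CPM with CB. With anti-PD-L1 the sum was between 24.6 and 30.5 CPM and with anti-Lag3 between 29.2 and 46.4 CPM. Nearly all of it was Cd8b1, at 24.4 to 46.4 CPM over the 12 mice. Cd8a was at most 3.24 CPM in any mouse, and at 0 in 2 of the CB mice and 1 of the isotype mice. The 5 erythroid markers summed to between 178 and 351 CPM with isotype and to between 119 and 161 CPM with CB. With anti-PD-L1 their sum was between 127 and 165 CPM and with anti-Lag3 between 168 and 221 CPM. Hbb-bs, a beta globin gene, fell by 0.75 on the log2 scale in CB against isotype (adjusted p = 0.00509, edgeR's quasi-likelihood test). Its log2 fold change was -0.01 in CB against anti-PD-L1 and -0.46 in CB against anti-Lag3. Of the CD4+ list, Cd4 fell by 0.50 (adjusted p = 0.00918) and Cd3e by 0.39 (adjusted p = 0.0401) in CB against isotype by the same test. The part of these shifts in the results below was not tested, and in sorted populations fewer cells of a type and less RNA per cell cannot be told apart.

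The first question was whether the messages of the proteasome as a whole differed between the treatments. Summed over the 41 genes, the level was 7954, 8051 and 7933 CPM in the isotype mice, 8554, 8757 and 8828 CPM with anti-PD-L1, 8633, 8135 and 8547 CPM with anti-Lag3, and 9709, 9117 and 9313 CPM with CB. The lowest CB mouse lay above the highest mouse of every other group, and every mouse given a single antibody lay above every isotype mouse. The means were 7979 ± 62.7, 8713 ± 142, 8438 ± 266 and 9380 ± 302 CPM in the same order (SD, n = 3 mice each), which put anti-PD-L1 9.19%, anti-Lag3 5.75% and CB 17.6% above isotype.

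By part of the particle, the summed level of CB was 21.9% above isotype for the alpha ring, 20.7% for the lid and 17.5% for the base. It was 17.0% above for the assembly chaperones, 20.1% for the activators and inhibitor and 9.09% for the beta ring. For the beta ring the mean with anti-PD-L1 (1798 ± 108 CPM) was as high as with CB (1790 ± 51.6 CPM), against 1641 ± 70.0 CPM with isotype (SD, n = 3 each). For the lid the 3 CB mice (2224, 2078 and 2120 CPM) stood above all 9 other mice, of which the highest, an anti-Lag3 mouse, had 1908 CPM. No test was made of these sums, in which genes with many reads weigh most. With each gene weighing the same, the classes stood in another order. The median log2 fold change of CB against isotype was 0.23 for the activators and inhibitor, 0.21 for the beta ring and 0.20 for the assembly chaperones. It was 0.19 for the base, 0.16 for the lid and 0.15 for the alpha ring. Differences between classes were not tested.

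**Figure D1:**
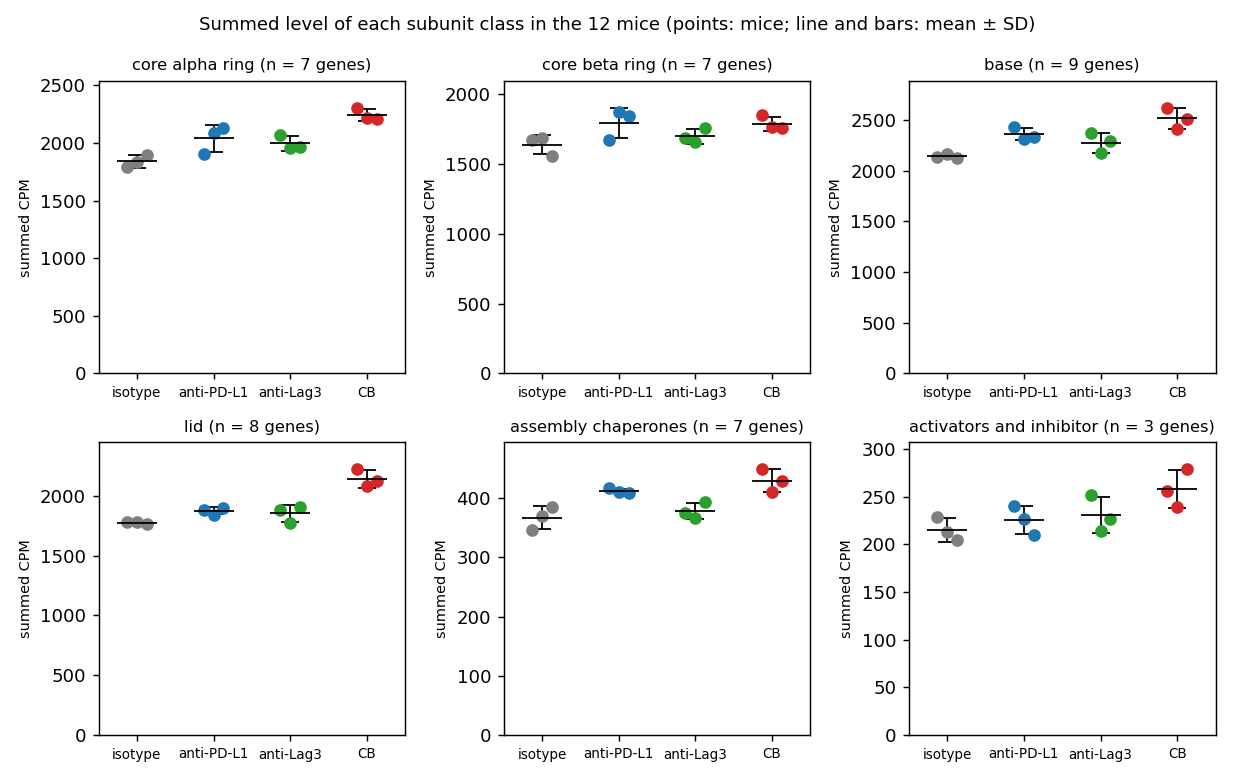
Summed level (vertical axis, CPM, from 0) of each subunit class in the 4 groups (horizontal axis), where points are mice and the line with bars is the mean ± SD of 3 mice. The lid shows CB mice between 2078 and 2224 CPM above all others, while in the beta ring the anti-PD-L1 and CB mice overlap.

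Gene by gene, 9 of the 41 members rose in CB against isotype and 0 fell at an adjusted p under 0.05 (quasi-likelihood test of edgeR, Benjamini-Hochberg adjusted over all genes tested). Over all genes tested, 2.33% rose and 1.96% fell. At an unadjusted p under 0.05 the members counted 13 higher and 0 lower, where 7.64% and 7.26% of all genes did. DESeq2's Wald test called 11 members higher and 0 lower, with 5.94% and 5.83% of the 7801 genes to which it gave an adjusted p. The estimate was above 0 in 37 of the 41, where it was in 7388 of the 15138 genes tested. The median log2 fold change was 0.19 over the members, against a median of 0 over all genes. In 21 members every CB mouse was above every isotype mouse, where 10.4% of all genes showed this, and in Psmb2 every CB mouse was below, as in 9.62% of all genes. CB had the highest group mean in 29 members (70.7%, against 28.5% of all genes tested) and isotype the lowest in 26 (63.4%, against 29.9%). All members had a mean of at least 35.1 CPM, which 4128 of the 15138 genes tested reached. Genes with fewer reads are harder to call, so shares of all genes, here and below, are not matched for level. The part of level in these contrasts was not tested. The 9 were 3 of 7 alpha ring, 3 of 9 base, 2 of 8 lid and 1 of 7 assembly chaperone genes, with 0 of 7 in the beta ring and 0 of 3 among activators and inhibitor. In these last classes 2 and 1 had an unadjusted p under 0.05 and DESeq2 called 1 (Psmb7) and 0. Single mice decided some of these calls. Without isotype mouse 1, isotype mouse 2 or CB mouse 3 the count was 4, 5 and 5, and without any other single mouse it was between 8 and 10.

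**Figure D2:**
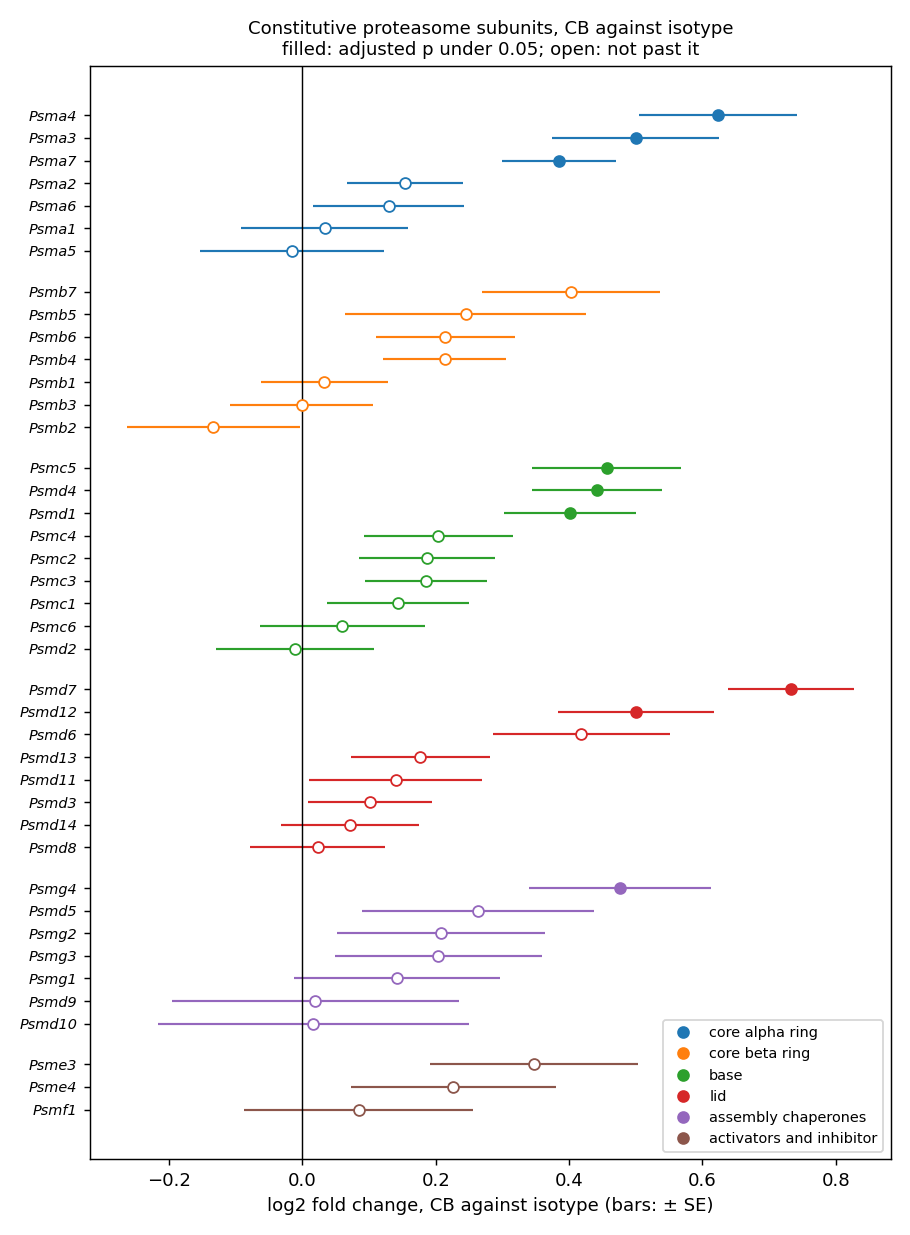
Log2 fold change of CB against isotype (horizontal axis) for each of the 41 genes (vertical axis, ordered within its class), with bars of ± SE from the fit to 12 mice and filled points for an adjusted p under 0.05. Filled points run from 0.39 (Psma7) to 0.73 (Psmd7), and 37 of the 41 points lie to the right of 0. Over all genes tested, which are not drawn, 7388 of 15138 estimates were above 0.

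Promoter sequences were read for the members that rose, since they rose in the same comparison, and for a beta ring gene that did not pass the test. RefSeq (GRCm38.p6) windows of 250 bases before to 50 after the annotated start were at hand for 34 of the 41 members and for 8 of the 9 that rose. Psmd7, which had the largest change of the 41 (log2 fold change 0.73), had no window and is left out of all that follows on promoters. In these windows 6 letter patterns were searched on both strands and stand in capitals below: TGACNNNGC, the antioxidant-type element bound by Nrf1 and Nrf2 of the CNC family, CCAAT (bound by NF-Y), CCGGAAG (ETS factors), GGGCGG (Sp1), CACGTG (E-box) and GCGCATGCG (nuclear respiratory factor). Shown are 4 that rose, from the alpha ring, the base and the lid, and Psmb5, a catalytic beta subunit that did not pass the test and whose window holds the CNC letters. The windows are chr9:54950609-54950908, plus strand; chr2:180042415-180042714, minus strand; chr3:95042565-95042864, minus strand; chr11:107479278-107479577, plus strand; and chr14:54617946-54618245, minus strand, each written in the direction of its gene.
Psma4 promoter: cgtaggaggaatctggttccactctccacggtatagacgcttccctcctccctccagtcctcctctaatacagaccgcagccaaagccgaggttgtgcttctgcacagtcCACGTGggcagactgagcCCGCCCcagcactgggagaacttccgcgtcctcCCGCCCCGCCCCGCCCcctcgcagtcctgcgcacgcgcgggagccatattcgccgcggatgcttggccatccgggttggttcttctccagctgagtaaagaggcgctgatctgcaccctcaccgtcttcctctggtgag
Psma7 promoter: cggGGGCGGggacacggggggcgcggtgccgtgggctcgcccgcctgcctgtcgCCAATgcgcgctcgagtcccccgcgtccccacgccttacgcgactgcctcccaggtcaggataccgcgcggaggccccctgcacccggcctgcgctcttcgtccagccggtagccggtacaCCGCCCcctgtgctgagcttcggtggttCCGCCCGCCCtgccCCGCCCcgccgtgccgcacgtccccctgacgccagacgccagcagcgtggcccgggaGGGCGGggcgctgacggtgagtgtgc
Psmd4 promoter: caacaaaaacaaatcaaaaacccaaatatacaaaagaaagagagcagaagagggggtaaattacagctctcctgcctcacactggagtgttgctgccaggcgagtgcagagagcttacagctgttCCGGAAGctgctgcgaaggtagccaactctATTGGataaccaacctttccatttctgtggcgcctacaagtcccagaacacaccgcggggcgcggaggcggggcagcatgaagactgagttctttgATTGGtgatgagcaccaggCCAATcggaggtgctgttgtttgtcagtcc
Psmd12 promoter: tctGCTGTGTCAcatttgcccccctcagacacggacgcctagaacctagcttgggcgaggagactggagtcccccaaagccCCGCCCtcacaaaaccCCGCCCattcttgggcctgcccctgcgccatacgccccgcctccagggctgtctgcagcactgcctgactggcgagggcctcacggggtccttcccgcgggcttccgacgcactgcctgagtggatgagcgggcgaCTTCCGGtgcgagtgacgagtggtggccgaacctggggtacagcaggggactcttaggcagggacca
Psmb5 promoter: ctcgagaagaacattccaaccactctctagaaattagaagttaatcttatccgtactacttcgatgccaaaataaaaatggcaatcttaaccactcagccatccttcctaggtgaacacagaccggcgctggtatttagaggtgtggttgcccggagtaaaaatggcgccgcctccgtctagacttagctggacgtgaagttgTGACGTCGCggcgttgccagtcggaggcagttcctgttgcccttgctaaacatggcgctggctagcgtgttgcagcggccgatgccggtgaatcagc

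In what follows, shares of genes tested are over the 9883 of them that had a window. Members and genes tested count once if any of their windows matched, while shares of all promoters count each of 32851 windows. No pattern stood in all 8 promoters of genes that rose. Of the 8, 1 (Psmd12, first base at -247 from the start) had the CNC letters, against 5 of the 26 other members, among them Psmb5 at -47, and against 16.9% of the genes tested and 12.4% of all promoters in the table. The ETS letters stood in 14 of the 34 members (41.2%), against 20.9% of the genes tested and 8.86% of all promoters. They stood in 2 of the 8 that rose (25.0%, Psmd4 and Psmd12), and whether these shares differ was not tested. The Sp1 letters stood in 20 of 34 (58.8%, against 67.2% of genes tested and 35.7% of all promoters) and in 6 of the 8, and CCAAT in 12 of 34 (35.3%, against 43.1% and 37.4%) and in 3 of the 8. The E-box was found in 3 members (8.82%, against 11.7% and 7.15%), Psma4 being the only one that rose, and the respiratory factor letters in 2 (5.88%, against 4.18% and 1.75%), neither of which rose. These are matches of letters, some of them overlapping within runs of C and G, and not sites shown to be bound.

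The alpha ring forms the outer faces of the core and its gate. Of its 7 genes Psma4, Psma7 and Psma3 rose with CB. Psma4, on chromosome 9 (54950790 to 54958030, GRCm38, GENCODE M21), had 197, 214 and 264 CPM in the isotype mice, 238, 264 and 322 CPM with anti-PD-L1, 268, 286 and 250 CPM with anti-Lag3 and 338, 333 and 369 CPM with CB. All CB mice were above the other 9 mice, and isotype mouse 3 overlapped the single-antibody mice. The log2 fold change of CB against isotype was 0.62 (SE 0.12, 1.54-fold, adjusted p = 0.00196), and the call held under all 21 alternatives to the fit.

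Psma7, on chromosome 2 (180036374 to 180042433), had 477, 564 and 515 CPM in the isotype mice, 600, 594 and 608 CPM with anti-PD-L1, 575, 559 and 565 CPM with anti-Lag3 and 721, 625 and 687 CPM with CB. Again each CB mouse was above every other mouse, with a log2 fold change of 0.39 against isotype (SE 0.09, adjusted p = 0.00666) that lost its call without isotype mouse 1. Psma3, on chromosome 12 (70974621 to 70996347), had 111, 105 and 119 CPM in the isotype mice, 137, 173 and 142 CPM with anti-PD-L1, 153, 137 and 124 CPM with anti-Lag3 and 173, 154 and 146 CPM with CB. Here the groups given antibodies overlapped with each other and stood above all isotype mice, and the log2 fold changes from isotype were 0.50 with CB (SE 0.13, adjusted p = 0.0169), 0.43 with anti-PD-L1 (SE 0.13, adjusted p = 0.329) and 0.31 with anti-Lag3 (SE 0.13, adjusted p = 0.805). The call of Psma3 was lost without isotype mouse 1, isotype mouse 2 or CB mouse 1. A gene on the opposite strand that overlaps it, 3110056K07Rik, had 1200 reads against its 32526.

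The other 4 alpha subunits did not pass the test, with log2 fold changes of 0.15 for Psma2 (SE 0.09), 0.13 for Psma6 (SE 0.11), 0.03 for Psma1 (SE 0.12) and -0.02 for Psma5 (SE 0.14). Psma2 and Psma6 had every CB mouse at or above the highest isotype mouse, by less than 1 CPM in the closest pair for Psma6. The estimates for subunits of a single ring, which assemble in equal numbers, thus ranged from -0.02 to 0.62 in message. Whether these differ from each other was not tested.

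The beta ring carries the proteolytic sites, in Psmb5, Psmb6 and Psmb7, next to the structural subunits Psmb1 to Psmb4. None of the 7 passed the test in CB against isotype. The largest estimate was that of Psmb7, a catalytic subunit, with 132, 112 and 118 CPM in the isotype mice, 132, 123 and 155 CPM with anti-PD-L1, 129, 133 and 148 CPM with anti-Lag3 and 132, 190 and 156 CPM with CB. All CB mice were above all isotype mice, by less than 1 CPM in the closest pair, at a log2 fold change of 0.40 (SE 0.13, adjusted p = 0.0953), and DESeq2's Wald test called it.

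The other catalytic genes had 0.25 (Psmb5, SE 0.18) and 0.21 (Psmb6, SE 0.10), and the structural ones 0.21 (Psmb4, SE 0.09), 0.03 (Psmb1, SE 0.10), -0.00 (Psmb3, SE 0.11) and -0.13 (Psmb2, SE 0.13). Psmb2 had 88.3, 84.0 and 86.8 CPM in the isotype mice, 79.7, 74.0 and 83.6 CPM with anti-PD-L1, 83.9, 73.4 and 74.9 CPM with anti-Lag3 and 82.3, 80.1 and 73.8 CPM with CB, so that all antibody-treated mice lay at or below the lowest isotype mouse (84.0 CPM), with an adjusted p of 0.722. Of Psmb5, the mouse with the highest level (63.5 CPM) and that with the lowest (40.2 CPM) were both from the anti-PD-L1 group.

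The base unfolds substrates with the 6 ATPases Psmc1 to Psmc6 and holds ubiquitin receptors and scaffolds. Of its 9 genes 3 rose in CB against isotype, each of a different kind, namely Psmd4, a receptor for ubiquitin chains, Psmc5, an ATPase, and Psmd1, a scaffold. Psmd4, on chromosome 3 (95032694 to 95042614), had 284, 281 and 264 CPM in the isotype mice, 320, 299 and 335 CPM with anti-PD-L1, 290, 339 and 329 CPM with anti-Lag3 and 404, 348 and 376 CPM with CB. The CB mice did not overlap with any other group, and the log2 fold change from isotype was 0.44 (SE 0.10, adjusted p = 0.00658).

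Psmc5, on chromosome 11 (106256154 to 106263120), had 127, 132 and 135 CPM in the isotype mice, 169, 159 and 161 CPM with anti-PD-L1, 161, 150 and 139 CPM with anti-Lag3 and 163, 185 and 193 CPM with CB. Every antibody-treated mouse was above every isotype mouse, while CB and anti-PD-L1 overlapped, and the log2 fold changes from isotype were 0.46 with CB (SE 0.11, adjusted p = 0.0145), 0.31 with anti-PD-L1 (SE 0.11, adjusted p = 0.491) and 0.19 with anti-Lag3 (SE 0.11, adjusted p = 0.805). Psmd1, on chromosome 1 (86064387 to 86139151), had 282, 337 and 272 CPM in the isotype mice, 372, 327 and 346 CPM with anti-PD-L1, 326, 301 and 327 CPM with anti-Lag3 and 410, 372 and 396 CPM with CB. Its CB mice were above all isotype and anti-Lag3 mice and overlapped with anti-PD-L1 by less than 1 CPM, at a log2 fold change of 0.40 from isotype (SE 0.10, adjusted p = 0.0160). Psmc5 lost its call without isotype mouse 1, isotype mouse 2 or CB mouse 3, and Psmd1 without isotype mouse 1, isotype mouse 3, CB mouse 1 or CB mouse 3.

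The other 5 ATPases lay between 0.06 (Psmc6, SE 0.12) and 0.20 (Psmc4, SE 0.11), with 0.19 for Psmc2 and for Psmc3 and 0.14 for Psmc1, and none passed the test. Psmd2, the other large scaffold of the base, had 356, 274 and 290 CPM in the isotype mice, 369, 344 and 288 CPM with anti-PD-L1, 354, 268 and 291 CPM with anti-Lag3 and 320, 289 and 304 CPM with CB. Within the isotype, anti-PD-L1 and anti-Lag3 groups the SD (41.2 to 44.6 CPM) was wider than the range of the 4 group means, and the log2 fold change was -0.01 (SE 0.12).

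The lid holds the deubiquitinase Psmd14 and, as its partner, Psmd7, and the other 6 genes encode its scaffold arms. Psmd7 showed the largest change of all 41 genes. On chromosome 8 (107580381 to 107588464), it had 274, 314 and 262 CPM in the isotype mice, 345, 344 and 364 CPM with anti-PD-L1, 336, 314 and 348 CPM with anti-Lag3 and 491, 472 and 449 CPM with CB. The lowest CB mouse stood well above the highest of the other 9. The log2 fold change of CB against isotype was 0.73 (SE 0.09, 1.66-fold, adjusted p = 2.30e-05), and it lay between 0.68 and 0.81 under the 21 alternatives, each of which kept the call.

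Psmd12, on chromosome 11 (107479484 to 107504362), had 120, 107 and 125 CPM in the isotype mice, 129, 133 and 130 CPM with anti-PD-L1, 147, 126 and 150 CPM with anti-Lag3 and 164, 158 and 175 CPM with CB. The CB mice were above all others, with a log2 fold change of 0.50 from isotype (SE 0.12, adjusted p = 0.00982), a call that was lost without isotype mouse 2 or CB mouse 3. Gm11722, which overlaps it on the same strand, had 1242 reads against its 32379. Psmd6 did not pass the test (0.42, SE 0.13, adjusted p = 0.0763) though its CB mice, at 174, 167 and 175 CPM, were above all 9 others, of which the highest was at 153 CPM.

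The deubiquitinase Psmd14 had a log2 fold change of 0.07 (SE 0.10). The scaffold genes had 0.02 (Psmd8, SE 0.10), 0.10 (Psmd3, SE 0.09), 0.14 (Psmd11, SE 0.13) and 0.18 (Psmd13, SE 0.10), and none of these 5 passed the test. Psmd7 and Psmd14, which form a pair in the protein, therefore had log2 fold changes of 0.73 and 0.07, and whether these differ was not tested.

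Assembly chaperones bind the subunits until the particle is complete, Psmg1 to Psmg4 on the core and Psmd5, Psmd9 and Psmd10 on the base. Their SEs ran from 0.14 to 0.23, against 0.09 to 0.18 over the rings, base and lid, and were widest for Psmd10 and Psmd9, the members with the fewest reads (8127 and 8716). Psmg4, on chromosome 13 (34162964 to 34178173), rose, with 65.7, 75.2 and 73.1 CPM in the isotype mice, 94.4, 86.0 and 81.2 CPM with anti-PD-L1, 67.2, 82.3 and 76.6 CPM with anti-Lag3 and 89.0, 97.2 and 112 CPM with CB. All CB mice were above all isotype and anti-Lag3 mice and overlapped with anti-PD-L1, at a log2 fold change of 0.48 from isotype (SE 0.14, adjusted p = 0.0433), and the call was lost under 11 of the 21 alternatives, 7 of them fits without 1 mouse (any of the 3 isotype mice, anti-Lag3 mouse 2 or 3, or CB mouse 2 or 3).

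The other chaperones lay between 0.02 (Psmd10, SE 0.23, and Psmd9, SE 0.22) and 0.26 (Psmd5, SE 0.17), with 0.21 for Psmg2, 0.20 for Psmg3 and 0.14 for Psmg1. Psmg2, which pairs with Psmg1, had its highest mean with anti-PD-L1, at 79.6, 68.7 and 78.4 CPM, and these did not overlap with anti-Lag3 at 48.3, 52.1 and 66.5 CPM, though the difference did not pass the test (log2 fold change 0.44, SE 0.16, adjusted p = 0.802). Of the genes that act on the finished core, the nuclear activator Psme3 had 0.35 (SE 0.16, adjusted p = 0.279), the activator Psme4 0.23 (SE 0.15) and the inhibitor Psmf1 0.08 (SE 0.17) in CB against isotype, and none passed the test.

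**Figure D3:**
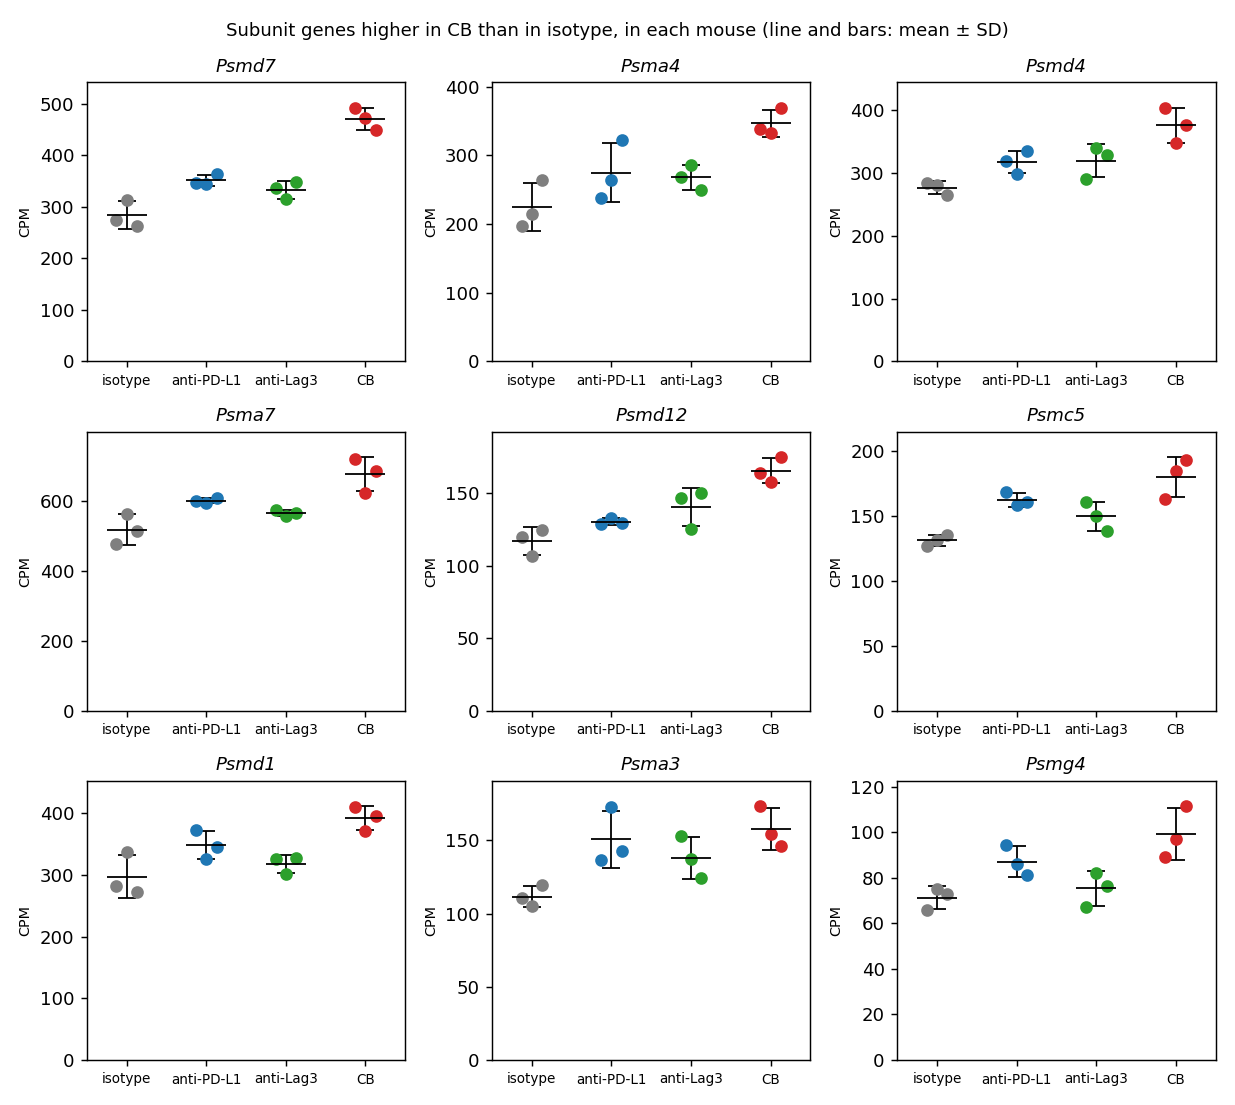
Level in CPM (vertical axis, from 0) of the 9 genes that rose in CB against isotype, in the 4 groups (horizontal axis), with points for mice and the mean ± SD of 3 mice. In Psmd7 the CB mice lie between 449 and 491 CPM and the other 9 between 262 and 364 CPM, while in Psma3 and Psmg4 the CB and anti-PD-L1 mice overlap.

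The next comparison asked what each antibody added to the other. Of the 41 members, Psmd7 alone rose in CB against anti-PD-L1 (log2 fold change 0.42, SE 0.09, adjusted p = 0.0443), where 0.205% of all genes rose. It was also the 1 member that rose in CB against anti-Lag3 (0.50, SE 0.09, adjusted p = 0.00683), where 0.39% of all genes rose. The median over the members was 0.08 and 0.12. DESeq2's Wald test called Psmd7 in the first, and Psmd7, Psma7 and Psmd1 in the second comparison, with 1.46% and 3.88% of the genes it gave an adjusted p. The call against anti-PD-L1 held in 8 of the 21 alternatives (adjusted p between 0.000470 and 0.738) and was lost without any of the 3 anti-PD-L1 mice, any of the 3 CB mice, anti-Lag3 mouse 2 or anti-Lag3 mouse 3, and that against anti-Lag3 was lost without anti-Lag3 mouse 2 or CB mouse 1. All CB mice were above all anti-PD-L1 mice in 7 members and above all anti-Lag3 mice in 12, where 6.94% and 7.68% of all genes showed this.

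With a single antibody, 0 of the 41 members passed the test against isotype, where 0.033% of all genes did for anti-PD-L1 and 0% for anti-Lag3. By edgeR 8 and 5 of the members had an unadjusted p under 0.05, where 7.84% and 5.21% of all genes did. DESeq2's Wald test called 0 members in both, and 0.422% and 0.0692% of the genes it gave an adjusted p. The members' median log2 fold change was 0.11 for anti-PD-L1 alone and 0.07 for anti-Lag3 alone, where that of all genes was 0. These comparisons and that of CB share the isotype mice, so their values are set side by side only. For Psmd7 the log2 fold change from isotype was 0.31 with anti-PD-L1 (SE 0.09, adjusted p = 0.344), 0.23 with anti-Lag3 (SE 0.09, adjusted p = 0.805) and 0.73 with CB. For Psma4 it was 0.29, 0.25 and 0.62, for Psma7 0.21, 0.13 and 0.39, and for Psmd4 0.20, 0.21 and 0.44, in the same order. For Psmd12 it was 0.16, 0.26 and 0.50, for Psmd1 0.23, 0.10 and 0.40, and for Psmg4 0.29, 0.08 and 0.48.

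Whether CB differed from the sum of the single-antibody effects was tested as the interaction on the log2 scale, and 0 of the 41 members passed, as did 0% of all genes. By edgeR 2 of the 41 members had an unadjusted p under 0.05, where 5.93% of all genes did, and DESeq2's Wald test called 0 members and 0.0334% of the genes it gave an adjusted p. For Psmd7 the interaction was 0.19 (SE 0.13) and the median over the members was 0.04. Between anti-PD-L1 and anti-Lag3 0 of the 41 passed, again as 0% of all genes did, with 2 at an unadjusted p under 0.05, where 4.69% of all genes were. DESeq2 called 0 members and 0.0667% of the genes it gave an adjusted p. The SE of the interaction lay between 0.12 and 0.33 over the members, and departures larger than that did not pass with 3 mice a group. By edgeR's quasi-likelihood test these were Psmd6 at 0.44 (SE 0.19, adjusted p = 0.804) and Psmd11 at 0.38 (SE 0.18, adjusted p = 0.840). The lack of a call therefore does not show that the effects were additive.

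**Figure D4:**
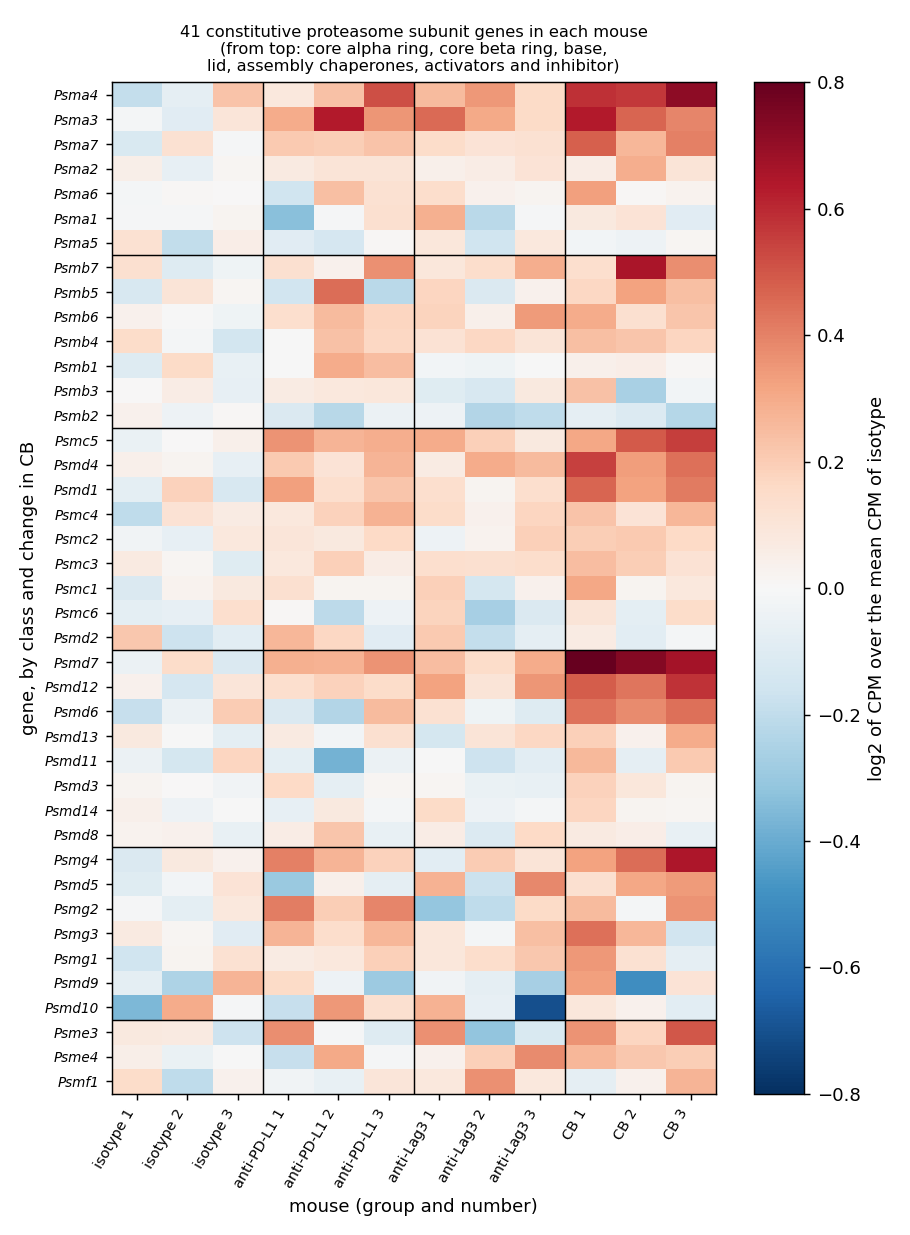
Log2 of the CPM over the mean CPM of the isotype group (colour, red above and blue below it) for the 41 genes (rows, in the same order by class) in each of the 12 mice (columns). Psmd7 is red in all 3 CB mice, at 449 to 491 CPM against an isotype mean of 283 CPM, and Psmd10 is blue in anti-Lag3 mouse 3, at 21.5 CPM.

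In the wider ubiquitin and proteasome pathway, of 17 tested genes of other proteasome parts and partners, 1 rose and 2 fell in CB against isotype, against 2.33% and 1.96% of all genes, at a median log2 fold change of 0.19. At an unadjusted p under 0.05 they counted 10, in either direction, where 14.9% of all genes did. DESeq2's Wald test called 5, these 3 and also Akirin2 and Txnl1, and 11.8% of the genes it gave an adjusted p. Sem1, the smallest subunit of the lid, which the symbol rule does not take, had 244, 270 and 280 CPM in the isotype mice, 219, 225 and 236 CPM with anti-PD-L1, 230, 243 and 267 CPM with anti-Lag3 and 182, 220 and 200 CPM with CB. Its CB mice were below all isotype mice, at a log2 fold change of -0.40 (SE 0.11, adjusted p = 0.0257), while the lid subunits Psmd7 and Psmd12 rose. Ubqln2, a shuttle that brings ubiquitinated proteins to the proteasome, had 26.7, 38.9 and 33.0 CPM with isotype and 18.5, 21.1 and 13.9 CPM with CB and fell by 0.88 (SE 0.24, adjusted p = 0.0310). Rad23b, another shuttle, had 223, 258 and 210 CPM with isotype and 307, 275 and 316 CPM with CB and rose by 0.38 (SE 0.11, adjusted p = 0.0485), a call kept in 10 of the 21 alternatives, and those of Sem1 and Ubqln2 were kept in 15 each. These p-values are Benjamini-Hochberg adjusted ones from the quasi-likelihood test of edgeR. None of the 3 passed it in CB against anti-PD-L1 or anti-Lag3.

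By the same test 0 of 3 genes for the transcription factors of proteasome genes and their processing (Nfe2l1, Nfe2l2 and Ngly1), 0 of 6 ubiquitin and E1 enzyme genes and 0 of 4 genes of p97 (Vcp) and its cofactors passed in CB against isotype, with 1, 2 and 2 at an unadjusted p under 0.05 and 0 of them called by DESeq2's Wald test. The shares of all genes were those just given, 2.33% and 1.96% called by edgeR, 14.9% at an unadjusted p under 0.05 and 11.8% by DESeq2. The 5 interferon-inducible proteasome genes, which make the immunoproteasome and its activator, did not pass it either, with 1 at an unadjusted p under 0.05 and 0 called by DESeq2. Their log2 fold changes were 0.27 for Psmb10 (SE 0.12, adjusted p = 0.277), 0.18 for Psme1 (SE 0.10), 0.18 for Psme2 (SE 0.13), -0.04 for Psmb9 (SE 0.11) and -0.05 for Psmb8 (SE 0.08). Psmb8 had 578, 633 and 639 CPM with isotype and 625, 600 and 566 CPM with CB, and the groups overlapped.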

How the data were processed

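RNA of responder CD4+ T cells from 12 mice was sequenced from the 3′ end. The study's methods mention no molecular identifiers, so reads cannot be taken as independent molecules. The authors trimmed reads with Cutadapt 1.18, mapped them with STAR 2.6.1a to GRCm38 and counted them on genes with FeatureCounts 1.6.4 (versions from the submitters' processing notes); annotation release and strand setting are not given in the sources used here. The deposited table holds raw counts for 56691 genes and 114 spike-in transcripts, the latter left out. A deposited table of rlog values (log2 scale) was not used, and the number of unused sample columns is 0. Total counts on genes were 16449370 to 22151025 per mouse (median 19176439).

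Symbols and coordinates were taken from GENCODE M21 (GRCm38), which names 52073 of the genes. Genes with at least 30 reads in sum were tested in edgeR 4.0.16 (limma 3.58.1, R 4.3.3): TMM scaling, 1 fit of 4 group means to 12 libraries, quasi-likelihood tests and Benjamini-Hochberg adjustment, with a threshold of 0.05. Alternatives were DESeq2's size factors, total counts, no filter, filterByExpr, DESeq2 1.42.0 Wald tests against 0 and 0.2, glmTreat against 0.2, only the groups compared, the mouse number as a block, and each mouse left out. Of the 41 members 18 overlap an annotated gene, which held at least 30 reads for 8 and at most 3.84% of the member's reads.

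The members and lists were chosen with earlier results of these data known. Named with values were every member called (the 8 of smallest adjusted p in CB against isotype in every mouse, and Psmg4 also), those with the largest and smallest change of each class, the called genes of the other proteasome and ubiquitin lists, the interferon-inducible genes, and members listed as not passing. The other genes named (Cd4, Cd3e, Hbb-bs, Cd8a, Cd8b1, Psmd6, Psmg2, Psmb5, Akirin2 and Txnl1) were chosen after their values were seen. Paaf1 of the partner list was not matched to a tested gene.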

Additional observations from a re-analysis of the deposited data

How the results depend on the processing

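Between CB and isotype, Psmd7 and Psma4 were called under all 21 alternatives, Psmd4 under 19, Psma7 under 18, Psmd12 under 17, Psma3 and Psmc5 under 16, Psmd1 under 15 and Psmg4 under 10. The count of 9 members higher became 2 (Psmd7 and Psma4) under both the DESeq2 Wald test and glmTreat against a log2 fold change of 0.2, which ask for a larger change, and was between 8 and 11 under the other 7 settings, of which 1 fits only the groups compared and the rest all 12 mice. Leaving out 1 mouse gave 4 to 10, and 0 members were called lower under any of the 21. Over all genes DESeq2's Wald test against 0.2 called 126 higher and 107 lower and glmTreat 213 and 151, against 353 and 296, DESeq2's Wald test against 0 called 463 and 455, and leaving out 1 mouse gave 214 to 385 higher and 170 to 328 lower.

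The Psmd7 call of CB against anti-PD-L1 was absent (0 members) with DESeq2's size factors, total counts, the Wald test against 0.2, glmTreat and only the groups compared, and leaving out 1 mouse gave 0 to 1. Against anti-Lag3 the count was 3 with DESeq2's Wald test against 0, 0 with that against 0.2 and with glmTreat, and 0 to 1 on leaving out 1 mouse. The cause was not tested.

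The median log2 fold change of the beta ring was 0.18 with total counts. Leaving out 1 mouse gave 0.14 to 0.21 for the beta ring, 0.17 to 0.23 for the base, 0.12 to 0.24 for the lid and 0.071 (without CB mouse 1) to 0.22 for the assembly chaperones. Genes near 0 (members and the interferon-inducible Psmb9), none of them called, changed sign: with total counts Psma1 (-0.000574), Psmd8 (-0.012), Psmd9 (-0.025) and Psmd10 (-0.00815), and without a filter Psmb3 (0.000769). On leaving out 1 mouse the ranges were -0.10 to 0.048 for Psma5, -0.021 to 0.12 for Psmb1, -0.086 to 0.11 for Psmd2, -0.16 to 0.22 for Psmd9, -0.14 to 0.19 for Psmd10, -0.14 to 0.11 for Psmb3, -0.019 to 0.16 for Psmf1, -0.17 to 0.047 for Psmb9, -0.0101 to 0.062 for Psmd8 and -0.00405 to 0.093 for Psma1.

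The mouse number used as a replicate block gave 10 members higher and 0 lower (Psmd6 added), kept Psmd7 in both other comparisons with CB and changed no other call of a member. Deviations of same-numbered mice correlated between -0.04 and 0.05 over all genes tested (18 pairs, none over 0.1). The median was 0.015, against -0.005 for 36 pairs of different numbers. Only 4128 of the 15138 genes reached the mean level of the lowest member. Counting noise in genes with few reads lowers such correlations, so they cannot decide whether numbers mark a shared sort. The main fit did not pair the mice. The paper reads the second axis of its principal component analysis largely as an effect of sort batches. The labels do not say whether a number marks a shared sort, and the part of sort batches in these results was not tested otherwise.

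Strand and annotation of the counting are unknown, TMM levels are relative to the other messages of a library, and proteins, subunit assembly and proteolysis were not measured.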

Other observations

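Among mice of the same group the members varied together only weakly. The median correlation between the residuals of 2 members from their group means was 0.07 over 820 pairs, against 0.003 over pairs of the 3952 genes tested in the same range of mean CPM (35.1 to 591). Over the classes it was highest between base and lid (0.15, 72 pairs) and within the alpha ring (0.15, 21 pairs), and it was 0.02 within the base (36 pairs). The pairs share the 12 libraries and their depth, and the values are given as a description.

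Reads on pseudogenes and tissue versions of members, found by symbol, were few, and pseudogenes under other names were not looked for. Of other protein-coding symbols that extend a symbol of the family, Psmc3ip had 3954 reads and Psme2b had 395. The processed pseudogenes Psmb5-ps, Psmb6-ps, Psmb6-ps2 and Psmb7-ps2 had 0, 2, 4 and 0 reads over the 12 mice. Psma8, the germ cell version of an alpha subunit, had 27, and Psmb11, the thymus version of a beta subunit, had 0 of all reads.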
